A study of Mus musculus with 6 samples.

Results

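The 10 transcripts described here encode the transforming growth factor-β (TGF-β) ligands Tgfb1, Tgfb2 and Tgfb3, their receptors Tgfbr1, Tgfbr2 and Tgfbr3, the receptor-regulated signal carriers Smad2 and Smad3, and the inhibitory Smad6 and Smad7. They were taken by gene symbol from the table of read counts of the whole epididymis, as genes of this pathway with a known place in epididymal immune tolerance and fibrosis. All 10 were among the 57127 genes listed, and all 10 were among the 19691 abundant enough to be tested. None of the 10 passed the test between Ocln-KO and wild type (WT) mice, and each fitted difference had a 95% interval that lay inside a 2-fold change.

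Whole epididymides of adult C57BL/6 males were compared between WT mice and mice lacking occludin, a tight junction protein (Ocln-/-, here Ocln-KO), with 3 libraries of each genotype. The methods state that Ocln-KO males came from heterozygous pairings, that RNA was taken separately from 3 pairs of mice, and, in another place, that RNA samples were pooled, so that n counts libraries here and p-values measure the spread between libraries. No treatment was given, and the age is given as adult. The records call the tissue whole epididymis while their extraction text names prefrontal cortex, and the epididymal transcripts Crisp1 and Lcn5 stood at 4439 to 16769 and at 2479 to 6476 CPM (counts scaled to a common library total).

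The libraries held 30646424 to 38870780 counts, so that 1 count equalled 0.0267 to 0.0314 CPM after scaling with edgeR's TMM factors. Ocln itself had 85.9, 78.8 and 91.8 CPM in the WT libraries and 15.1, 15.3 and 14.9 CPM after loss of Ocln, a log2 fold change of -2.50 (edgeR adjusted p = 0.000108), so that all 6 libraries were as labelled. Which part of Ocln is deleted is not given in the labels. Ocln-KO replicate 3 stood apart from the other Ocln-KO libraries, at 86.3 on the first principal component where they lay at 17.7 and 29.1 and WT at -52.8 to -37.0. Throughout, adjusted p-values come from edgeR's quasi-likelihood fit over all genes tested (Benjamini-Hochberg), log2 fold changes are Ocln-KO against WT, and a gene is said to rise or fall only where its adjusted p was under 0.05.

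TGF-β ligands are secreted as latent complexes, held in the matrix by latent TGF-β binding proteins and released by integrins, thrombospondin or proteases. Active ligand binds the type II receptor Tgfbr2, which phosphorylates the type I receptor Tgfbr1, while Tgfbr3 (betaglycan) is a co-receptor that presents ligand, in particular Tgfb2. The type I receptor phosphorylates Smad2 and Smad3, which enter the nucleus with Smad4, and Smad6 and Smad7 restrain the cascade as feedback inhibitors, Smad6 mainly on the bone morphogenetic protein (BMP) side. In the epididymis the pathway is known for its part in tolerance to sperm, which carry antigens that appear after self tolerance is set, and in many tissues it drives the deposition of matrix.

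Promoter windows, 250 bases before to 50 after the transcription start, are shown for a pair of ligands whose transcripts leaned in opposite directions, for a receptor and for the inhibitor Smad6, whose values did not overlap between genotypes. They are RefSeq sequences of GRCm38.p6, printed 5′ to 3′ on the strand of the gene, and 6 of the 10 genes have an entry. Capitals mark matches on either strand to TATAAA (the TATA box), GGGCGG (the GC box), CAGAC (a SMAD box) and the palindrome GTCTAGAC (bound by SMAD proteins), none of which contains another.
Tgfb1, chr7:25686752-25687051, plus strand: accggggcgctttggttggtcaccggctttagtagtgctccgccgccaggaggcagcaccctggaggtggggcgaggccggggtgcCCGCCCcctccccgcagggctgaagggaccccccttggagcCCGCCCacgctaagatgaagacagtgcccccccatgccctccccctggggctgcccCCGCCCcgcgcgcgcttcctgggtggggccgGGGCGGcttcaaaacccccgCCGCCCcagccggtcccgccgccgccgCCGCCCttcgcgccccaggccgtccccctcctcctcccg
Tgfb2, chr1:186705940-186706239, minus strand: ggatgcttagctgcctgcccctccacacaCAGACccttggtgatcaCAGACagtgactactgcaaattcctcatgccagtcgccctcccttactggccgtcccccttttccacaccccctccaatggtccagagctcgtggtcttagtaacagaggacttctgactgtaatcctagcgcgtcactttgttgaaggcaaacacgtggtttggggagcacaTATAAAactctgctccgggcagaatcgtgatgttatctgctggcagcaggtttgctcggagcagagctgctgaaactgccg
Tgfbr2, chr9:116175314-116175613, minus strand: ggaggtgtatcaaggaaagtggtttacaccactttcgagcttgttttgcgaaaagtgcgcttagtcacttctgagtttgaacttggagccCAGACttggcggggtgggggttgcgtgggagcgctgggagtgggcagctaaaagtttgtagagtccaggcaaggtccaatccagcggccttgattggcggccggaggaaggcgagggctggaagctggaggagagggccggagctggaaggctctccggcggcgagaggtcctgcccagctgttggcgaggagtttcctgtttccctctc
Smad6, chr9:64022010-64022309, minus strand: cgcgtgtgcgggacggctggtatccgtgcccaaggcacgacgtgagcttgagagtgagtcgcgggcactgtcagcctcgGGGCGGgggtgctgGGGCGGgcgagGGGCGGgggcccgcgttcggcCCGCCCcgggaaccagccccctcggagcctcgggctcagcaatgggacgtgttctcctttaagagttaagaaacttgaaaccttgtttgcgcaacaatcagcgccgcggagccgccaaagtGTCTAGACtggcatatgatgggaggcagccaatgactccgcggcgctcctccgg

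The ligand windows shown differed in build. That of Tgfb1 was 77% G and C, held 6 GC boxes and no TATAAA, whereas that of Tgfb2 was 54.3% G and C, held no GC box, a TATAAA starting 31 bases before the start and 2 SMAD boxes. The window of Smad6 held 4 GC boxes and the palindrome across its start site, and that of Tgfbr2 held 1 SMAD box. Over all 32851 promoter windows, 13.6% held TATAAA, 35.7% a GC box, 49.6% a SMAD box and 0.213% the palindrome, and the median G and C content was 52.7%. A match describes letters in these windows and not a bound site.

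Among the ligands, Tgfb1 (chr7:25687002-25705077, plus strand), the main isoform of immune cells, had 36.9, 40.4 and 47.9 CPM across WT, compared with 37.8, 33.9 and 30.7 CPM in Ocln-KO. Gene positions here and below are those of the GRCm38 annotation. The genotypes overlapped through Ocln-KO replicate 1, which lay above the lowest WT library. Its log2 fold change was -0.29 (95% interval -0.58 to 0.0048, edgeR adjusted p = 0.178), from 41.8 ± 5.64 to 34.2 ± 3.58 CPM (SD over 3 libraries each). In whole tissue, fewer cells of a type and less RNA per cell cannot be told apart, for this and every gene below.

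Tgfb2 (chr1:186622792-186705989, minus strand), an isoform made mainly by epithelial and mesenchymal cells, had 29.5, 26.5 and 29.5 CPM in WT, against 23.2, 29.8 and 40.4 CPM in the Ocln-KO libraries. The Ocln-KO libraries lay on both sides of WT, and their coefficient of variation was 27.8% against 6.07% in WT. The log2 fold change was 0.13 (95% interval -0.30 to 0.56, edgeR adjusted p = 0.689) and turned to -0.10 without Ocln-KO replicate 3. Tgfb3 (chr12:86056745-86079041, minus strand), known for its part in palate fusion and scarless repair, had 18.7, 22.3 and 21.3 CPM in the WT libraries and 19.6, 21.9 and 24.9 CPM after loss of Ocln. These ranges overlapped, with a log2 fold change of 0.09 (95% interval -0.20 to 0.39, edgeR adjusted p = 0.677) that was -0.00047 without Ocln-KO replicate 3. Antisense genes lie over 2.14% of the exon bases of Tgfb2 (Gm29491) and over 4.82% and 7.6% of those of Tgfb3 (Gm37804 and Gm48008), and the strand setting of the counting is not given.

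The balance of the ligands was taken within each library as the log2 ratio of Tgfb1 to the sum of Tgfb2 and Tgfb3, in counts per kb of exon, a measure that library scaling does not touch. It was -0.54, -0.48 and -0.26 in WT and -0.38, -0.79 and -1.24 in Ocln-KO. Ocln-KO replicate 1 lay within the WT range and the other two below it. The difference of the means was -0.38, with an exact two-sided permutation p of 0.3 where 0.1 is the smallest that 3 against 3 libraries allow. Without Ocln-KO replicate 3 the difference was -0.16, and without Ocln-KO replicate 1 it was -0.59.

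**Figure D1:**
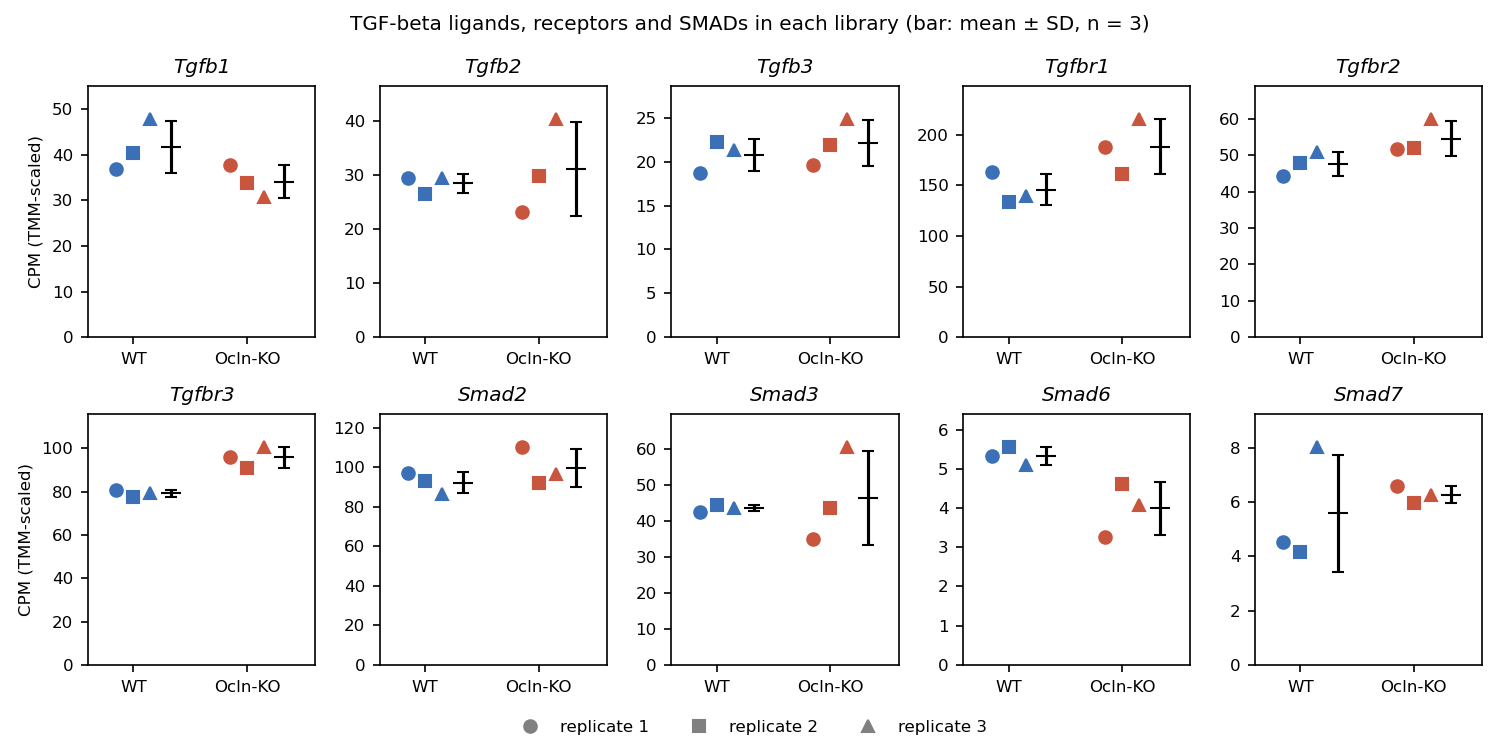
Level of each TGF-β ligand, receptor and SMAD transcript in CPM (linear axes from 0, a scale of its own in each panel) in the 3 WT (blue) and 3 Ocln-KO (red) libraries. Marker shape gives the replicate number, which was not used to pair libraries, and bars give mean ± SD. Tgfbr2 and Tgfbr3 lay higher and Smad6 lower in every Ocln-KO library than in any WT library. Over all genes tested, 16.9% lay higher and 19.4% lower in this way. Ocln-KO replicate 3 (red triangle) was the highest library for 6 of the 10 genes and for 22.8% of all genes tested.

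The receptors were the members that leaned most in the same direction, each with a positive log2 fold change that did not pass the test. Tgfbr1 (chr4:47353222-47414931, plus strand), the type I receptor kinase, had 163, 134 and 140 CPM across WT, compared with 188, 162 and 216 CPM in Ocln-KO. The genotypes touched only where Ocln-KO replicate 2 lay just under WT replicate 1. Its log2 fold change was 0.37 (95% interval 0.07 to 0.67, edgeR adjusted p = 0.106, unadjusted p = 0.0205).

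Tgfbr2 (chr9:116084293-116175360, minus strand), the ligand-binding type II receptor, had 44.1, 47.9 and 50.8 CPM in WT, against 51.7, 52 and 60 CPM in the Ocln-KO libraries. Each Ocln-KO library lay above each WT library by a small margin. The log2 fold change was 0.20 (95% interval -0.03 to 0.43, edgeR adjusted p = 0.234). Tgfbr3 (chr5:107106570-107289629, minus strand) had 80.7, 77.4 and 79.4 CPM in the WT libraries and 95.8, 91.1 and 101 CPM after loss of Ocln. The genotypes did not overlap, 79.2 ± 1.68 against 95.9 ± 4.85 CPM (SD over 3 libraries each). Of all genes tested, 16.9% were higher in every Ocln-KO library than in any WT library, as Tgfbr2 and Tgfbr3 were. The log2 fold change of Tgfbr3, 0.28 (95% interval 0.09 to 0.46, edgeR adjusted p = 0.0698, unadjusted p = 0.00896), had the lowest adjusted p of the 10 genes. Scaled by total counts only, which moved the median log2 fold change of all genes from 0.0081 to 0.09, it was 0.36 with an adjusted p of 0.0403, and over the other 12 alternatives the adjusted p lay between 0.061 and 0.190. Of Tgfbr3 exon bases, 4.54% are shared with Gm43422, an annotated gene on the same strand.

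Markers of other cell types were examined in the same libraries. Over all genes tested, 8.95% had an edgeR adjusted p under 0.05, 3.91% higher and 5.04% lower in Ocln-KO. Of 5 smooth muscle markers, 2 rose, Myh11 and Actg2, with log2 fold changes of 0.77 and 1.09 (edgeR adjusted p = 0.0296 and 0.0489), and the summed level of the 5 went from 614 to 796 CPM in WT to 983 to 1319 CPM in Ocln-KO. The 6 macrophage markers summed to 120 to 137 CPM in WT and 142 to 227 CPM in Ocln-KO. The 6 fibroblast markers summed to 300.1 to 366 and 349 to 499 CPM, where the genotypes overlapped. No gene of either list passed the test. Of 6 clear cell markers, 5 were tested and 3 fell, Atp6v0d2, Atp6v1b1 and Foxi1 (log2 fold changes -1.56, -0.78 and -0.77), and the list summed to 174 to 249 CPM in WT and 54.0 to 97.2 CPM in Ocln-KO. All 5 of these calls were lost whichever WT replicate was left out, and all but that of Atp6v0d2 without Ocln-KO replicate 2. The call of Atp6v1b1 was also lost without Ocln-KO replicates 1 and 3 and with total counts only (edgeR adjusted p = 0.063). With limma-voom, those of Atp6v1b1 and Actg2 were lost (limma-voom adjusted p = 0.054 and 0.057). The part of these cells in the receptor values was not tested.

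Of the receptor-regulated SMADs, Smad2, on chromosome 18, had 97.1, 93.1 and 86.6 CPM across WT, compared with 111, 91.9 and 96.5 CPM in Ocln-KO. The genotypes overlapped, and the log2 fold change was 0.11 (95% interval -0.12 to 0.34, edgeR adjusted p = 0.502). Smad3 (chr9:63646767-63757994, minus strand), which binds DNA directly, had 42.6, 44.4 and 43.7 CPM in WT, against 35, 43.5 and 60.8 CPM in the Ocln-KO libraries. The WT libraries were almost alike, with a coefficient of variation of 2%, and the Ocln-KO libraries were spread over 28.3%. Its log2 fold change of 0.09 (95% interval -0.33 to 0.52, edgeR adjusted p = 0.782) became -0.15 without Ocln-KO replicate 3.

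The inhibitory SMADs were the least abundant members. Smad6 (chr9:63953076-64022059, minus strand) had 5.32, 5.57 and 5.09 CPM in the WT libraries and 3.27, 4.61 and 4.08 CPM after loss of Ocln, from 105 to 199 counts a library. Each Ocln-KO library was below each WT library, as for 19.4% of all genes tested. The log2 fold change of -0.42 was the largest of the 10 genes in size (95% interval -0.90 to 0.06, edgeR adjusted p = 0.226). Smad7, on chromosome 18, the inhibitor of Tgfbr1, had 4.54, 4.16 and 8.05 CPM across WT, compared with 6.61, 5.96 and 6.27 CPM in Ocln-KO. WT replicate 3 was the highest of all libraries and the other WT libraries were the lowest, so that the Ocln-KO libraries lay inside the WT range. The log2 fold change was 0.17 (95% interval -0.46 to 0.80, edgeR adjusted p = 0.725), and it was -0.0055 without WT replicate 2 and 0.53 without WT replicate 3.

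The ratio of inhibitory to receptor-regulated SMADs, again per kb of exon within a library, was -2.82, -2.81 and -2.40 in WT and -2.93, -2.73 and -3.04 in Ocln-KO on the log2 scale. The genotypes overlapped. The means differed by -0.23 (exact two-sided permutation p = 0.3, with 0.1 the smallest possible), and by -0.0897 without WT replicate 3.

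**Figure D2:**
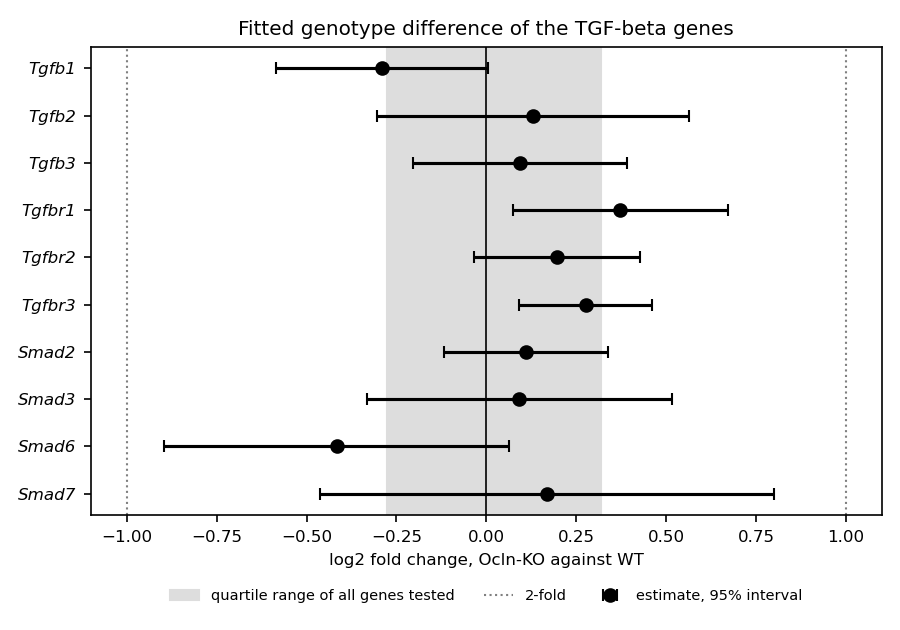
Fitted log2 fold change (horizontal axis) of each TGF-β gene with its 95% interval from edgeR's quasi-likelihood fit on 3 WT and 3 Ocln-KO libraries, the grey band running from the first to the third quartile of all 19691 genes tested (-0.28 to 0.32) and dotted lines at 2-fold. The intervals of Tgfbr1 and Tgfbr3 lay above 0, none passed after adjustment over all genes, and no interval reached a 2-fold change.

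Of the group, 0 of the 10 genes had an edgeR adjusted p under 0.05, where 8.95% of all genes tested did, 3.91% with a higher and 5.04% with a lower level in Ocln-KO. The 770 higher and 992 lower genes behind these shares became 1175 and 674 with scaling by total counts only. With a change over 2-fold asked for as well, 0 members and 3.19% of all genes passed. Of the members, 2 had an unadjusted p under 0.05, where 29.1% of all genes did. DESeq2 and limma-voom also gave 0 members with an adjusted p under 0.05 and 2 members with an unadjusted p under 0.05 each. The values of WT and Ocln-KO were fully separated for 3 members, Tgfbr2 and Tgfbr3 (higher in Ocln-KO) and Smad6 (lower), where 36.3% of all genes tested were, 16.9% higher and 19.4% lower. The log2 fold change was positive for 8 of the 10, also under RLE factors and total counts, with a median of 0.12 beside 0.0081 over all genes. This count rested on single libraries. Tgfb2, Tgfb3 and Smad3 turned negative without Ocln-KO replicate 3, and Smad7 did so without WT replicate 2. Ocln-KO replicate 3 was the highest of the 6 libraries for 6 members, Tgfb2, Tgfb3, the 3 receptors and Smad3, and the lowest for Tgfb1, while it was the highest for 22.8% and the lowest for 24% of all genes tested.

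Levels of different genes were compared as CPM per kb of exon. In WT the order ran from Tgfbr1 (22.3 ± 2.34, SD, n = 3) over Tgfbr3 (12.1 ± 0.256), Smad2 (10.5 ± 0.604), Tgfb1 (8.28 ± 1.12), Smad3 (7.86 ± 0.157), Tgfb3 (6.14 ± 0.544), Tgfbr2 (5.82 ± 0.406) and Tgfb2 (4.92 ± 0.298) to Smad6 (1.66 ± 0.0747) and Smad7 (1.24 ± 0.474). The ranges of neighbours overlapped for Tgfb1 and Smad3, for Tgfb3 and Tgfbr2, and for Smad6 and Smad7, and the other neighbours were apart. Tgfb1 was thus the most abundant ligand transcript in WT. In Ocln-KO the order by mean was Tgfbr1, Tgfbr3, Smad2, Smad3, Tgfb1, Tgfbr2, Tgfb3, Tgfb2, Smad7 and Smad6. From Smad2 (11.3 ± 1.11) to Tgfb2 (5.38 ± 1.5) the range of each gene overlapped that of the next, as did those of Smad7 and Smad6. Tgfbr1 was the most abundant and Smad6 and Smad7 the least abundant in both genotypes.

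**Figure D3:**
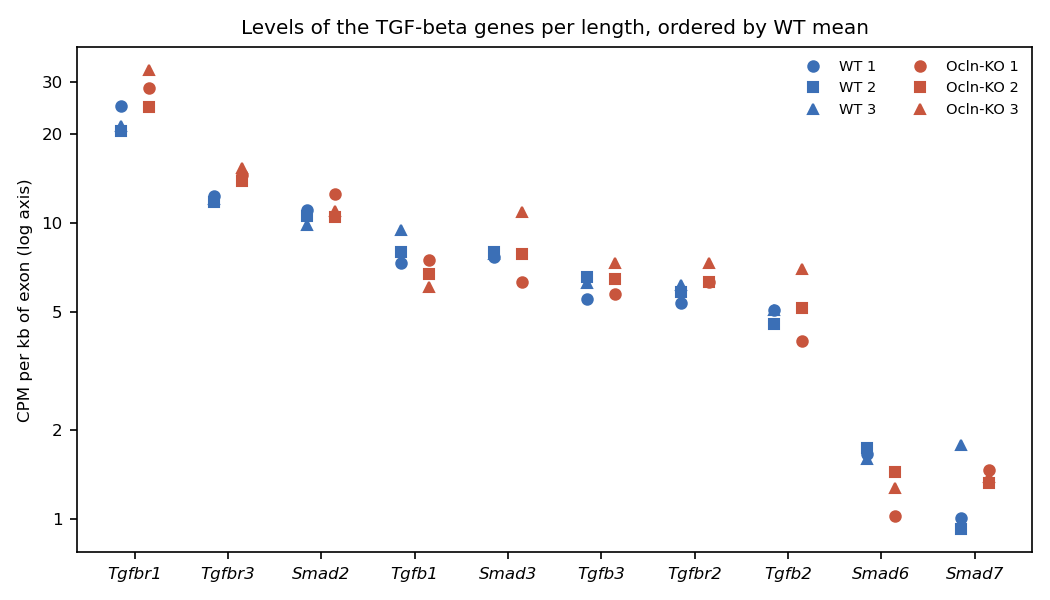
Level per length (CPM per kb of exon, log axis) of the 10 TGF-β genes in each of the 6 libraries, ordered by the WT mean, with WT in blue and Ocln-KO in red and marker shape giving the replicate. Tgfbr1 stood highest in every library, the ligands, Smad3 and Tgfbr2 lay close together, and both inhibitory SMADs stood lowest.

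The other genes of the TGF-β superfamily were examined as 6 lists, 92 genes of which 88 were abundant enough to be tested. By the edgeR test 9 rose and 5 fell, together 15.9% of the 88, beside 8.95% of all genes. The lists were chosen with earlier results of these data known, so these shares are descriptive and do not test the pathway. All 14 had genotypes that did not overlap, as 36.3% of all genes tested did. Since the 14 were picked by a test on these same libraries, this is no separate evidence. Of the 14, 10 were still called without Ocln-KO replicate 3, and 11 and 5 without Ocln-KO replicates 1 and 2. Leaving out a WT library cost most of these calls: 0, 3 and 2 of the 14 held without WT replicates 1, 2 and 3, settings in which 23, 230 and 56 genes were called in all.

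Among 11 other receptors and co-receptors, 1 rose, 1 fell and 9 did not pass. Acvr1, a type I receptor for BMPs and activins, rose from 10.1, 10.5 and 8.4 CPM in WT to 14.3, 15.4 and 21.1 CPM in Ocln-KO, a log2 fold change of 0.81 (SE 0.18, edgeR adjusted p = 0.0382). Bmpr1b, a type I BMP receptor, fell from 244, 204 and 240 CPM to 179, 154 and 132 CPM, a log2 fold change of -0.56 (SE 0.13, edgeR adjusted p = 0.0404). The libraries of the genotypes were apart for both genes. Both calls were lost whichever WT replicate was left out and without Ocln-KO replicate 2, that of Bmpr1b also with total counts only (edgeR adjusted p = 0.0622), and over all alternatives the adjusted p reached 0.133 for Acvr1 and 0.144 for Bmpr1b.

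Among 18 further SMADs and intracellular regulators, 2 rose, 1 fell and 15, including the shared partner Smad4, did not pass. Tgif1, a corepressor of SMAD complexes, rose from 40.7 ± 3.21 to 55.4 ± 4.24 CPM (SD, n = 3 each; log2 fold change 0.45, edgeR adjusted p = 0.0372). Nedd4l, a ubiquitin ligase that acts on activated SMADs and is also known for its control of the epithelial sodium channel, rose from 144 ± 11.6 to 199 ± 14.2 CPM (log2 fold change 0.47, edgeR adjusted p = 0.0318). Strap, which binds Smad7 and is also part of a complex for assembly of splicing components, fell from 118 ± 2.12 to 95.2 ± 2.68 CPM (log2 fold change -0.31, edgeR adjusted p = 0.0465). Strap lost its call when any of the 6 libraries was left out, with total counts only (edgeR adjusted p = 0.119) and with no filter on low counts (edgeR adjusted p = 0.0772), and Tgif1 and Nedd4l lost theirs whichever WT replicate was left out and without Ocln-KO replicate 2, Tgif1 also without Ocln-KO replicate 3. Over all alternatives the adjusted p reached 0.156 for Strap, 0.141 for Tgif1 and 0.128 for Nedd4l.

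Of 12 genes of latency and activation, Thbs1 rose, Furin fell and 10 did not pass. Thbs1, which encodes thrombospondin 1, a matrix protein able to release TGF-β from its latent form, went from 45.4, 43.1 and 39 CPM to 70.6, 77.9 and 61.6 CPM (log2 fold change 0.72, SE 0.11, edgeR adjusted p = 0.0184). Furin, the convertase that cleaves the ligand precursors among many other proteins, went from 249, 243 and 273 CPM to 199, 189 and 199 CPM (log2 fold change -0.38, SE 0.08, edgeR adjusted p = 0.037). The genotypes were apart for both. Both calls were lost whichever WT replicate was left out, with adjusted p-values of at most 0.0828 and 0.125 over all alternatives, and Furin also lost its call without Ocln-KO replicates 1 and 2 and with total counts only. The latent binding proteins Ltbp1 to Ltbp4 did not pass, with log2 fold changes of -0.55, -0.25, 0.25 and -0.07.

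Among 10 extracellular antagonists and decoys, of which 9 were tested, the BMP antagonist Chrd fell and the activin antagonist Fst rose. Chrd, which encodes chordin, had 29.1, 25.7 and 36.2 CPM in WT, against 9.79, 8.19 and 6.48 CPM in the Ocln-KO libraries, a log2 fold change of -1.89 (SE 0.19, edgeR adjusted p = 0.00695), and 3.82% of its exon bases lie opposite exons of Thpo. Fst, which encodes follistatin, had 1.79, 1.55 and 1.37 CPM in the WT libraries and 4.86, 3.61 and 8.02 CPM after loss of Ocln, a log2 fold change of 1.80 (SE 0.34, edgeR adjusted p = 0.0257). Chrd lost its call without WT replicate 1 and Fst whichever WT replicate was left out, with adjusted p-values of at most 0.0572 and 0.106 over all alternatives. The proteoglycans Dcn and Bgn, which bind TGF-β in the matrix, were widely spread in Ocln-KO, at 288, 294 and 527 CPM and at 205, 286 and 557 CPM, and did not pass (edgeR adjusted p = 0.154 and 0.133).

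Of 19 activin, BMP and GDF ligands and related genes, among them Nodal and its secreted antagonist Lefty2, 16 were tested, 1 fell and none rose. Gdf11, a ligand that signals through Smad2 and Smad3, had 19.9, 11.8 and 16 CPM across WT, compared with 1.84, 1.41 and 0.71 CPM in Ocln-KO. Every Ocln-KO library was far below every WT library, a log2 fold change of -3.59 (SE 0.36, edgeR adjusted p = 0.0069), and its adjusted p was 0.0518 without WT replicate 1 and under 0.05 in the other 12 alternatives. The median of the list was -0.17 with TMM factors and -0.09 by total counts only.

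Of 22 transcripts known to respond to TGF-β or BMP, 4 rose, none fell and 18 did not pass, with a median log2 fold change of 0.50 beside 0.0081 over all genes. Over all genes tested, 3.91% rose and 5.04% fell. The list summed to 3103 to 3358 CPM in WT and to 2661, 3845 and 6421 CPM in Ocln-KO replicates 1, 2 and 3, so that the genotypes overlapped. Fn1, the matrix protein fibronectin, had 94.1, 97.9 and 82.6 CPM in WT, against 132, 249 and 317 CPM in the Ocln-KO libraries (log2 fold change 1.35, SE 0.28, edgeR adjusted p = 0.0316). Tnc, the matrix protein tenascin C, had 7.16, 10.3 and 4.01 CPM in the WT libraries and 13.8, 17.5 and 23.7 CPM after loss of Ocln (log2 fold change 1.36, SE 0.34, edgeR adjusted p = 0.049). Cdkn2b, a cell cycle inhibitor, rose from 2.13 ± 0.363 to 6.91 ± 1.37 CPM (SD, n = 3 each; log2 fold change 1.70, edgeR adjusted p = 0.0146), and Id2, a BMP-responsive inhibitor of differentiation, rose from 20.1 ± 1.91 to 27.8 ± 2 CPM (log2 fold change 0.47, edgeR adjusted p = 0.0455).

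Of the 22 members of this list, 18 had a positive and 4 a negative log2 fold change. The genotypes were fully separated for 8 of them, all higher in Ocln-KO. Over all genes tested, 16.9% were separated higher and 19.4% lower. Not every member leaned this way, as 2 genes named after their values were seen show. Ctgf, a widely used readout of TGF-β signalling, had a log2 fold change of -0.08 (edgeR adjusted p = 0.885), and Col1a1 had 423, 708 and 1490 CPM in Ocln-KO, on both sides of the WT range of 735 to 905. Without WT replicate 1 none of the 4 calls held, without WT replicate 2 that of Cdkn2b held, and without WT replicate 3 none did. Tnc also lost its call without Ocln-KO replicates 2 and 3, Fn1 without Ocln-KO replicate 2, and Id2 without each Ocln-KO replicate. Fn1 and Tnc are made by fibroblasts and smooth muscle as well, whose summed markers were given above, and the part of those cells was not tested.

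**Figure D4:**
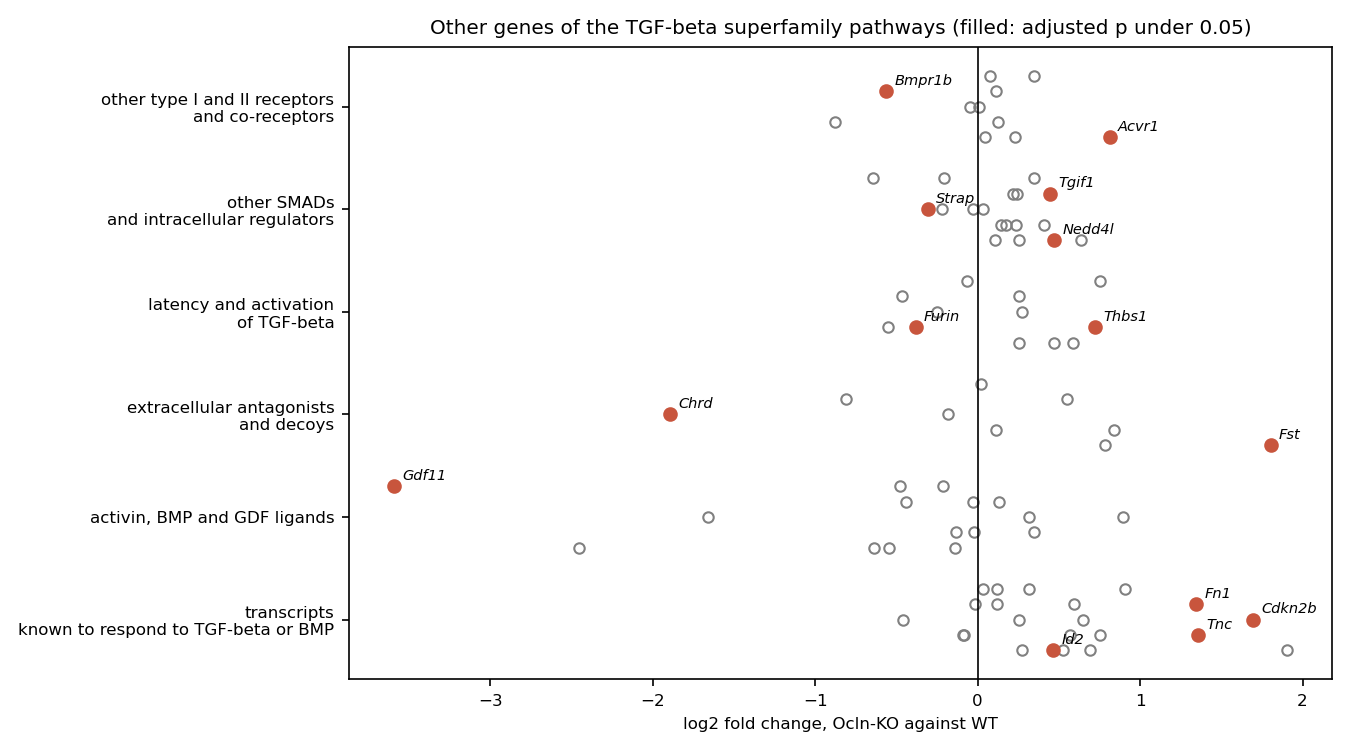
Log2 fold change (horizontal axis) of the 88 tested genes of 6 lists of the TGF-β superfamily, 1 row of points per list with vertical offsets only to separate points, filled and named where the edgeR adjusted p was under 0.05. The filled points are 9 on the right and 5 on the left, with Gdf11 and Chrd farthest to the left and Fst and Cdkn2b farthest to the right among them.

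Of the T cell markers, Foxp3, Cd8a and Ctla4 were close to the limit of detection. Foxp3, which marks regulatory T cells, had 0, 0 and 0.162 CPM across WT, compared with 0, 0.251 and 0.385 CPM in Ocln-KO and was not tested, Cd8a was under the filter as well, and Ctla4 had no count in any library. The 4 tested genes of the T cell list, of 7, were Cd3e, Cd4, Il2ra and Ikzf2. They had positive log2 fold changes and none passed (lowest edgeR adjusted p = 0.104). The whole list summed to 71.3 to 78.0 CPM in WT and 79.0 to 105 CPM in Ocln-KO. Of the B and plasma cell list only Jchain of 4 genes was tested, and it rose by 2.15 on the log2 scale (edgeR adjusted p = 0.0137). Its call was lost whichever WT replicate was left out, with an edgeR adjusted p of at most 0.0778. The platelet genes Pf4, Ppbp and Gp1bb had no count in any library, and Itga2b and Gp9 did not pass. Of 5 basal cell markers, Krt14 rose by 0.58 on the log2 scale (edgeR adjusted p = 0.0276, lost whichever WT replicate was left out and without Ocln-KO replicate 2). The other 4 did not pass. Of the 5 markers, 4 had a positive and 1 a negative log2 fold change (-0.21). Over all genes tested, 3.91% rose and 5.04% fell. No gene passed in the lists of principal and general epithelial, endothelial, adipocyte and sperm markers. The 7 principal and general epithelial markers nevertheless summed to 19461 to 23437 CPM in WT and 12009 to 16647 CPM in Ocln-KO. That sum follows the most abundant genes of the list, among them Crisp1 and Lcn5. Of the 7 genes, 5 had a negative and 2 a positive log2 fold change, with a median of -0.20. The 5 adipocyte markers, all with negative log2 fold changes (median -2.06), summed to 7.16 to 13.1 and 0.592 to 4.74 CPM. The genotypes did not overlap in either sum. The 5 endothelial markers summed to 75.2 to 89.9 and 78.6 to 95.3 CPM and the 6 sperm markers to 189 to 253 and 64.2 to 270 CPM, where the genotypes overlapped. The part of these cells in the values of the TGF-β genes was not tested.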

How the data were processed

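RNA of whole epididymides from WT and Ocln-KO mice was extracted with Trizol, depleted of rRNA, made into directional libraries and sequenced as paired ends. The authors filtered reads, aligned them to GRCm38 with HISAT2 (version 2.0.4 in the submitters' processing notes) and counted them per gene with HTSeq. The deposited values are raw counts per gene symbol. The counting mode, strand setting and annotation release are not given in the sources used here, so reads shared by overlapping genes are uncertain. Some gene symbols are stored as dates, none of them a gene named here.

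Columns were matched to samples by title, with 0 unmatched. The fits were run under R 4.3.3 using edgeR 4.0.16 (filterByExpr by genotype, TMM factors, glmQLFit and glmQLFTest, Benjamini-Hochberg adjustment over 19691 genes), DESeq2 1.42.0 and limma 3.58.1. They were also run on simulated data with changes larger than those of the members, so that run cannot speak to changes of the members' size. Intervals use the fit's degrees of freedom, and a standard error is the log2 fold change over the root of F. Exon lengths and positions are from GENCODE M21 (GRCm38). Permutation tests used scipy 1.17.1. Counts per library (30646424 to 38870780) limit precision, and intervals cover the spread between libraries.

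The members and lists were chosen with earlier results of these data known. Named genes are the 10 members, Ocln and, per list, up to 4 genes with an adjusted p under 0.05, a mean of at least 1 CPM and the largest change. Ctgf, Col1a1, Dcn, Bgn, the Ltbp genes, Smad4, Crisp1 and Lcn5 were named after their values were seen. The 13 alternatives for each fit are reported below. Same-numbered libraries did not deviate together (correlations -0.0525, -0.0315 and -0.0026), so they were not treated as pairs. With 3 libraries of each genotype, these correlations cannot exclude a pairing.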

Additional observations from a re-analysis of the deposited data

How the results depend on the processing

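Under all 13 alternatives Tgfb1, Smad2, Smad6 and the 3 receptors kept their direction. It turned without Ocln-KO replicate 3 for Tgfb2 (-0.10, with 0.31 the highest value with a library left out), Tgfb3 (-0.00047, highest 0.18) and Smad3 (-0.15, highest 0.26) and without WT replicate 2 for Smad7 (-0.0055, highest 0.53), none of them called, and the cause was not tested. The count of TGF-β genes with an adjusted p under 0.05 went from 0 to 1 (Tgfbr3) with total counts only and was 0 in the other alternatives, the 2-fold threshold included. The 1762 genes called in all became 3179 with DESeq2, 628 with the 2-fold threshold and 41 with a replicate block, and lay between 23 and 1692 with each library left out. The 14 pathway genes called became 21 with DESeq2 and 1, Gdf11, with the replicate block, and lay between 0 and 16 with each library left out. The labels give same-numbered libraries only a shared number and do not match them to the 3 pairs of mice in the methods. The block therefore cannot show whether libraries were paired. Both balances kept their direction, between -0.59 and -0.16 for the ligands and between -0.31 and -0.0897 for the SMADs with a library left out. The 3 libraries of each genotype limit the precision to the intervals given with each gene.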

Other observations

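Values just outside the threshold, chosen after they were seen, were those of Lefty2, Timp1, Itgb8 and Skil, from 4 of the 6 lists. Lefty2, a secreted antagonist of Nodal, had 1.87, 0.733 and 2.48 CPM in WT, against 0.0935, 0.502 and 0.326 CPM in the Ocln-KO libraries (log2 fold change -2.45, edgeR adjusted p = 0.0599). Timp1, an inhibitor of matrix metalloproteinases, had 1.36, 1.55 and 0.296 CPM in the WT libraries and 3.49, 4.14 and 4.41 CPM after loss of Ocln (log2 fold change 1.91, edgeR adjusted p = 0.0615). Itgb8, an integrin subunit that releases TGF-β from its latent form, had 4.84, 6.33 and 5.36 CPM across WT, compared with 10.9, 7.25 and 9.68 CPM in Ocln-KO (log2 fold change 0.75, edgeR adjusted p = 0.0621), and Skil, a repressor of SMAD transcription that TGF-β induces, had 61.2, 57.1 and 53.8 CPM in WT, against 69.3, 79.5 and 119 CPM in the Ocln-KO libraries (log2 fold change 0.64, edgeR adjusted p = 0.0737). The genotypes did not overlap for any of the 4, as for 36.3% of all genes tested.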
